A study of Mus musculus with 3 samples.

Results

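The genes described are the Rab GTPases measured in the follicle-associated epithelium of mice, which covers the lymphoid follicles of the gut wall and in which M cells take up antigen by endocytosis and carry it across the cell. Members were chosen by name, as every gene symbol of the form Rab, a number and at most 2 letters that a probe set of the array carries alone. That gave 63 of the 18193 genes with a probe set of a single symbol. Of these, 59 are Rab GTPases. The other 4 share only the form of the name: Rab3ip is an exchange factor, Rab5if a small non-GTPase protein, and Rab10os and Rab26os are non-coding RNAs. They are described apart and left out of the counts below.

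Small intestine of untreated C57BL/6 mice was the source. There were 2 arrays of RBP-J depleted epithelium, from mice with floxed Rbpj alleles and a Cre recombinase under the Villin promoter, and 1 array of wild type epithelium. RBP-J binds DNA and passes the signal of Notch receptors on to their target genes. Villin is active in intestinal epithelium, so lymphocytes and stroma in the tissue are not a target of the Cre. Age and sex, and whether the depleted samples came from separate animals, are not given in the sources used here, so the spread between the depleted arrays may be technical. Each value is an intensity in multiples of the array's median over all probe sets. Each gene was represented by its probe set with the highest mean, and levels of different genes cannot be ranked on this scale.

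A few facts of the whole table bear on every value below. Over the 11885 genes tested, the first depleted array had a median log2 difference from wild type of -0.003, and the second one of 0.22. Differences per array are therefore given less that median and are called centred. Array readings and limma log2 differences are not centred, and the median limma log2 difference over all genes tested was 0.11. The sex-linked genes split the arrays as genotype does: Xist read 42.8 and 43.4 in the depleted arrays and 0.297 in wild type, and the Y-linked Eif2s3y read 0.122 and 0.0560 in the depleted arrays and 20.6 in wild type. Sex and genotype cannot be told apart here. Rbpj itself read 2.72 and 5.74 in the depleted arrays and 7.15 in wild type, which did not pass the test (limma log2 difference -0.81, SE 0.49, adjusted p = 0.9997). The ratio of 3' to 5' control probe sets for Gapdh was 2.28 and 1.54 in the depleted arrays and 1.83 in wild type. The 6 epithelial markers summed to 565 and 606 in the depleted arrays and 478 in wild type, and those of B cells, 7 of 8 measured, to 18.2 and 45.3 against 43.2. Markers of smooth muscle and fibroblasts summed to at most 3.29 on any array.

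Rab proteins are small GTPases that give membranes their identity. Bound to GTP, they sit on a vesicle or organelle through a prenyl anchor and recruit effectors such as tethers and motors. Exchange factors switch them on, GTPase-activating proteins switch them off, and GDI returns them to the cytosol. In intestinal epithelium they are known for carrying brush border proteins to the apical surface, for sorting endocytosed cargo, and for release of granules from secretory cells.

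No Rab gene passed the test for a difference between RBP-J depleted and wild type epithelium. Of the 59 Rab genes, 48 had a mean intensity of at least 0.598 and were tested among all 11885 genes. None was called by limma at an adjusted p under 0.05, and none had an unadjusted p under 0.05, against 0.0841% and 2.27% of all genes tested. The lowest unadjusted p was 0.0894, for Rab27b, and each of the 48 had an adjusted p = 0.9997. eBayes without an intensity trend also called 0. The standard errors of these Rab differences were between 0.37 and 0.63 on the log2 scale. An exact permutation test over 3 arrays cannot give a p below 0.333.

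As a family the Rab genes stayed close to the median of all genes. Over the 48 tested, the first depleted array had a median centred log2 difference of 0.05 and the second one of -0.03. The median size of the difference, regardless of sign, was 0.15 in the first array and 0.24 in the second, against 0.29 and 0.28 over all genes tested. In the first depleted array 7 of 48 Rab genes (14.6%) lay 1.5-fold or more from wild type in either direction, against 22.1% of all genes. In the second 5 of 48 (10.4%) were, against 18.6% of all genes. The Rab genes above the median in both depleted arrays numbered 17 (35.4%, against 29.9% of all genes), those below it in both 14 (29.2%, against 29.9%), and those on opposite sides 17 (35.4%, against 40.2%). These sizes and shares describe the family beside all genes and were not tested. The fitted standard error was smaller for bright genes (0.37 for Rab1a) than for dim ones (0.63 for Rab3b). Rab genes and all genes were not matched for intensity.

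**Figure D1:**
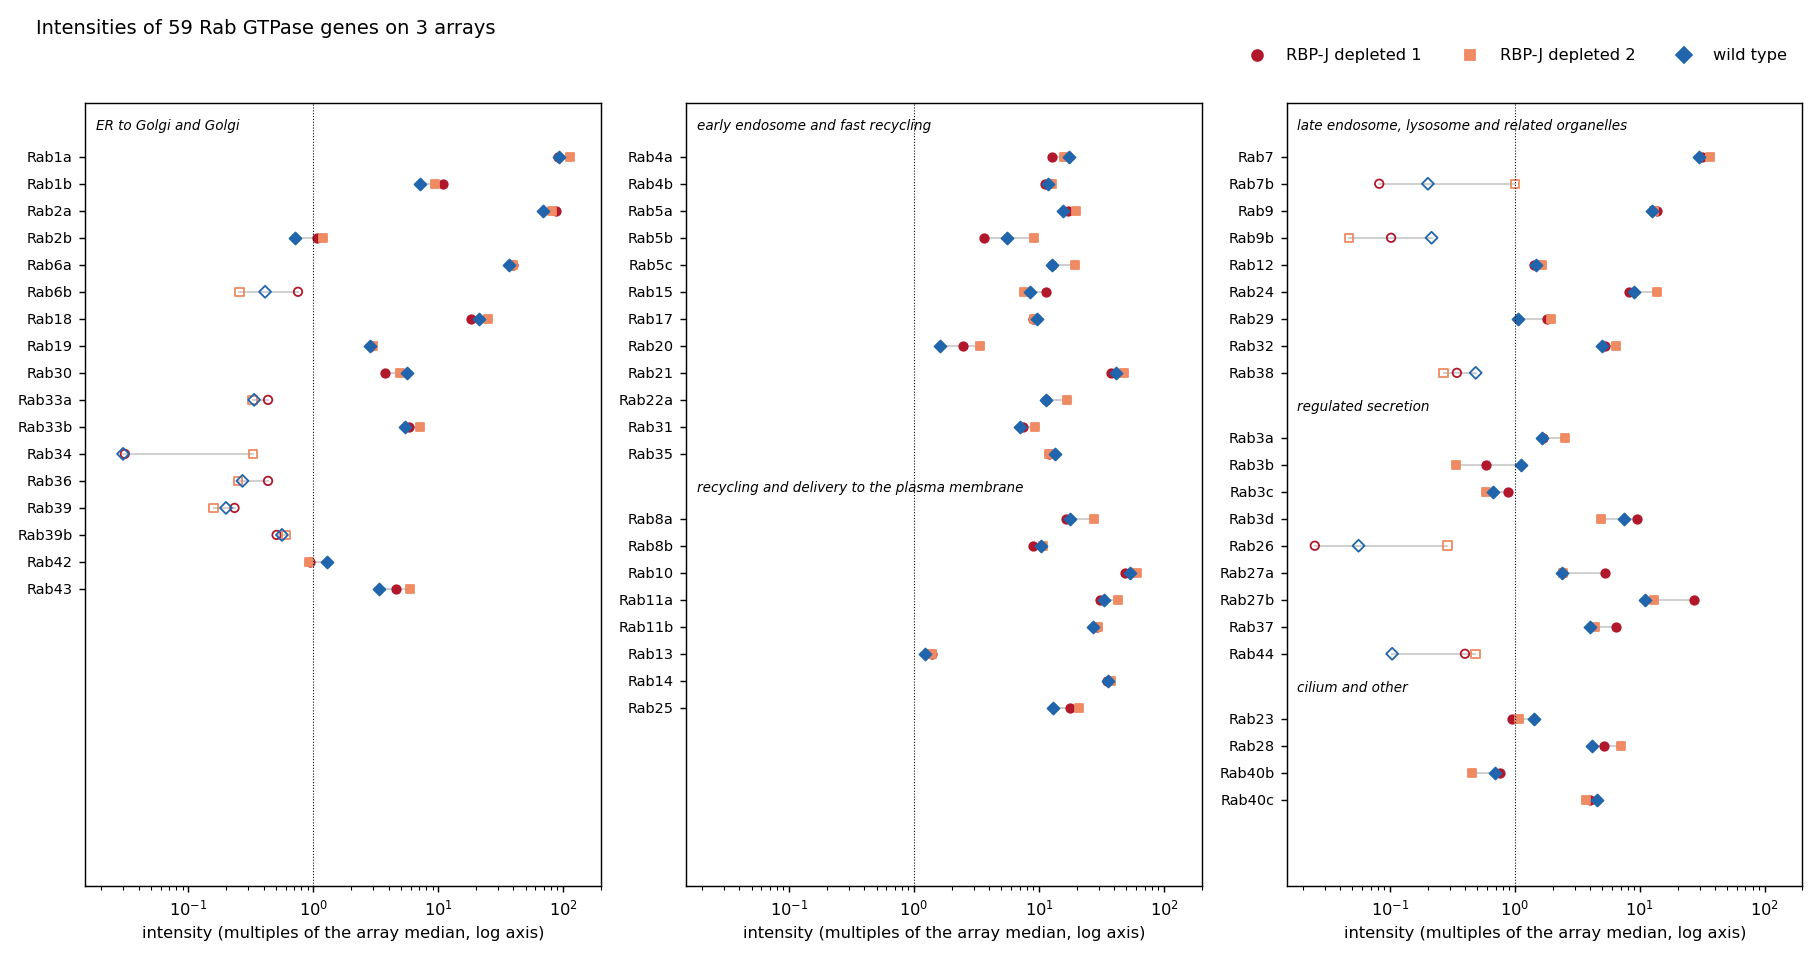
Intensity of each of the 59 Rab genes (horizontal log axis, multiples of the array median; the dotted line is the array median) in the first and second RBP-J depleted arrays and in wild type, grouped by role, 1 probe set per gene. Open symbols are the 11 genes under the filter; for most genes with filled symbols the 3 arrays lie close together, while Rab27a and Rab27b stand out in the first depleted array, at 5.22 and 27.0.

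A fold of at least 1.5 that ran one way in both depleted arrays was reached by 0 Rab genes upward, against 2.76% of all genes, and by 1 downward, against 3.47%. These counts take 1 probe set per gene, that of highest mean. Dimmer probe sets past the filter reached the fold upward for Rab11a, Rab27a, Rab40c and Rab43. Downward, dimmer ones of Rab11b, Rab14 and Rab22a (-0.65 and -0.76) did. The 1 gene counted downward was Rab3b, of regulated secretion. Rab3b read 0.583 and 0.335 in the depleted arrays and 1.12 in wild type, with centred log2 differences of -0.72 and -1.45 (limma log2 difference -0.97, SE 0.63, adjusted p = 0.9997). Both depleted values lie under the array median, and with a pseudocount of 1 the count was 0. They also lie under the filter of 0.598, so the Rab3b mean of 0.679 passed it only through the wild type value.

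The members above the median in both depleted arrays were led by Rab20, which acts on early endosomes and phagosomes. Rab20 read 2.47 and 3.38 in the depleted arrays, 2.93 ± 0.649 (SD, n = 2), and 1.60 in wild type (limma log2 difference 0.77, SE 0.52, adjusted p = 0.9997). Rab29, which acts at the trans-Golgi network and on lysosomes, read 1.79 and 1.94 in the depleted arrays, 1.86 ± 0.110 (SD, n = 2), and 1.05 in wild type. Its centred log2 differences were 0.65 and 0.53. The wild type value was the lowest of the 3 for both genes, and neither difference passed the test. Among the members below the median in both, Rab23, a ciliary Rab that holds back Hedgehog signalling, read 0.947 and 1.07 in the depleted arrays and 1.42 in wild type, with the wild type value the highest. A dimmer Rab23 probe set read 0.787 and 0.913 in the depleted arrays and 0.700 in wild type, the other way round.

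Because the depleted protein binds DNA, the 250 bases before the start of each Rab gene were searched on both strands for TGGGAA, the core of the RBP-J recognition sequence, and for GTGGGAA, which contains it. Windows came from RefSeq on GRCm38.p6 and covered 48 of the 59 Rab genes with 60 starts. TGGGAA lay in 17 of those 60 windows (28.3%), against 21.6% of all 32851 windows, and GTGGGAA in 5 (8.33%), against 5.42%. At least 1 TGGGAA window belonged to 3 of the 8 highest ranked Rab genes, Rab20, Rab29 and Rab1b. Of the 8 lowest ranked, 6 had at least 1 window, and TGGGAA lay in a window of 1, Rab23. Rab23 has 2 windows, and the one not shown here holds no match. Among all tested Rab genes, 14 of the 42 with a window held TGGGAA, and a link between match and rank was not tested. A match is a run of letters and not a measured binding site. The windows of Rab29, with 3 matches, and of Rab20 and Rab23, with 1 each, are shown because these genes stand among those ranked highest and lowest and hold a match. Rab3b ranks before Rab23 among the lower genes, and its window holds no match. They run 5′ to 3′ along the gene's strand and end at the base before the start, and capitals mark TGGGAA or its reverse complement.
Rab29 (chr1:131867027-131867276, plus strand): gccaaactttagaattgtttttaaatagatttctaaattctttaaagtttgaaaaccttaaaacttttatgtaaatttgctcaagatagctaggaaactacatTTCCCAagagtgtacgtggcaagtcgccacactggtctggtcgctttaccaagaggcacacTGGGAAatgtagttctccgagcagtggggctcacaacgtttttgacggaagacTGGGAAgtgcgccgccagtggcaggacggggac
Rab20 (chr8:11478641-11478890, minus strand): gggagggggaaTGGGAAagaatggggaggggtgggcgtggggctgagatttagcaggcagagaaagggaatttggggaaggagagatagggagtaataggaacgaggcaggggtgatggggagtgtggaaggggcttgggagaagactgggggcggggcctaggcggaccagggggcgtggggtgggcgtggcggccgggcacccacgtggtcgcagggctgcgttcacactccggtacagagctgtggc
Rab23 (chr1:33720169-33720418, plus strand): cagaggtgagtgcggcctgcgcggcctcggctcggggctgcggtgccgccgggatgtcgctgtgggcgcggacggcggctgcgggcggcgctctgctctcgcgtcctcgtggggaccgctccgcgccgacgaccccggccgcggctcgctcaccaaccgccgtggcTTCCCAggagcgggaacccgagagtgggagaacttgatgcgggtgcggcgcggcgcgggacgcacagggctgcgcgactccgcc
The matches begin 147, 86 and 33 bases before the start in Rab29, 239 in Rab20 and 84 in Rab23. The windows of Rab25, Rab27a, Rab43 and Rab3b held neither run of letters.

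**Figure D2:**
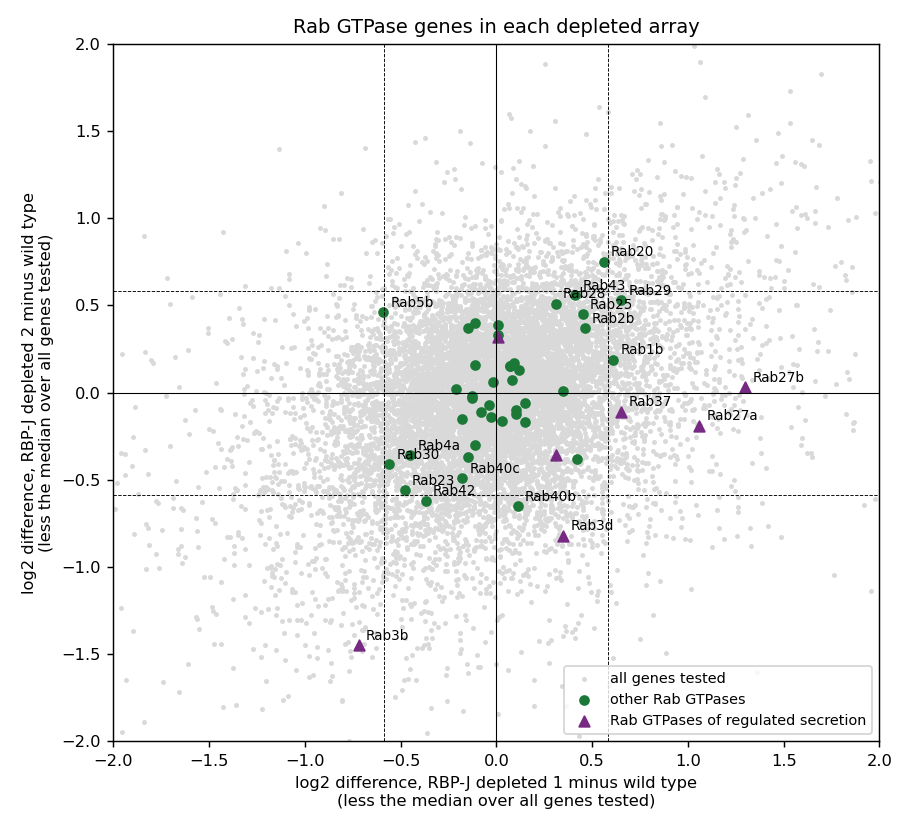
Centred log2 difference from wild type in the first (horizontal) and second (vertical) RBP-J depleted array, for the 48 Rab genes tested and for all genes tested in grey; dashed lines mark 1.5-fold, and axes are cut at 2 in size, so grey points beyond that are not shown. Rab27a and Rab27b lie far right near the horizontal axis, at 1.06 and 1.30 in the first array and -0.19 and 0.03 in the second. With 1 probe set per gene, Rab3b is the only Rab gene past 1.5-fold one way in both.

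Rab genes of the ER to Golgi route and of the Golgi had 11 of 17 members tested, with centred medians of 0.09 for the first depleted array and 0.02 for the second. Rab1a and Rab1b carry cargo from the ER to the Golgi. Rab1a read 91.2 and 113 in the depleted arrays and 92.4 in wild type. Rab1b read 10.9 and 9.5 in the depleted arrays, with 7.09 in wild type the lowest, and its centred log2 differences were 0.61 and 0.19. Rab6a, of transport within and back from the Golgi, read 39.6 and 39.5 in the depleted arrays and 36.8 in wild type. Rab2a, of the early Golgi, read 87.7 and 81.2 in the depleted arrays and 68.9 in wild type. Its relative Rab2b read 1.07 and 1.20 in the depleted arrays and 0.713 in wild type, but dimmer probe sets of Rab2b past the filter gave -0.22 and 0.31, and -0.60 and 0.58. None of these differences passed the test.

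Rab43 and Rab30, both of the Golgi, lay on opposite sides. Rab43 read 4.55 and 5.97 in the depleted arrays and 3.38 in wild type (limma log2 difference 0.59, SE 0.49, adjusted p = 0.9997). A further Rab43 probe set read 3.95 and 3.44 in the depleted arrays and 1.46 in wild type, and the remaining one gave centred differences of 0.80 and -1.10. Rab30 read 3.75 and 4.96 in the depleted arrays and 5.67 in wild type. Its dimmer probe set went the same way, at 0.556 and 1.63 in the depleted arrays and 1.70 in wild type. Rab42 read 0.940 and 0.918 in the depleted arrays and 1.29 in wild type, close to the array median throughout.

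All 12 Rab genes of the early endosome and of fast recycling were tested, with centred medians of -0.04 and 0.05. The Rab5 genes, which drive fusion of endocytic vesicles with early endosomes, gave no common direction. Rab5a read 16.9 and 19.9 in the depleted arrays and 15.5 in wild type. Rab5c read 12.7 and 19.4 in the depleted arrays and 12.6 in wild type, so that only the second stood apart. Rab5b read 3.60 and 9.11 in the depleted arrays, below and above the 5.58 of wild type, and its other probe set gave the opposite, 4.79 and 1.63 against 2.57. The limma log2 difference of Rab5b was 0.04 (SE 0.49, adjusted p = 0.9997).

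Rab4a, of rapid return from early endosomes to the surface, read 12.7 and 15.8 in the depleted arrays and 17.4 in wild type, the highest of the 3. Its other probe set also had wild type highest, at 5.92 and 10.6 in the depleted arrays and 11.7 in wild type. The probe set shown for Rab4a is of a type that can match transcripts of more than 1 gene, as are those of Rab2a and Rab24, and that of Rab3a may match unrelated sequence. Rab35, also of recycling, read 11.9 and 12 in the depleted arrays and 13.3 in wild type. Rab17, an epithelial Rab known for transcytosis and apical recycling, read 8.94 and 9.19 in the depleted arrays and 9.69 in wild type. A dimmer Rab17 probe set gave centred differences of 0.05 and 0.37. No gene of this group passed the test.

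The 8 Rab genes of the recycling endosome and of delivery to the plasma membrane, the group of apical traffic, were all tested. In its probe set of highest mean, none had a centred difference of 1.5-fold in either depleted array. Some dimmer probe sets past the filter did, such as those of Rab11a (0.71 and 0.67), Rab11b (-0.82 and -0.87) and Rab14 (-0.69 and -1.10). Rab8a and Rab8b, of which Rab8a delivers brush border proteins, read 16.4 and 27.4 and 9.0 and 10.8 in the depleted arrays, against 17.8 and 10.3 in wild type. Rab10, of basolateral delivery, read 48.3 and 60.9 in the depleted arrays and 53.1 in wild type, and Rab14, of traffic between Golgi and endosomes, 34.9 and 37.8 against 35.7. For each of these 4 genes the wild type reading, not centred, lay between the depleted ones in the probe set given. Centred, Rab8b (-0.18 and -0.15), Rab10 (-0.13 and -0.02) and Rab14 (-0.03 and -0.14) lay below the median in both depleted arrays. Rab8a (-0.11 and 0.40) lay on either side of it. In some other probe sets the wild type reading was not between the depleted ones. For Rab14 one read 21.4 and 29.6 in the depleted arrays against 19.2 in wild type, and another 3.59 and 3.13 against 5.95. For Rab8a a dim one read 1.27 and 1.73 against 0.928.

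Rab11a, Rab11b and Rab25 form the Rab11 family of the recycling endosome, and Rab25 is its epithelial member. Rab25 read 17.8 and 20.7 in the depleted arrays, 19.3 ± 2.09 (SD, n = 2), and 12.9 in wild type. Its centred log2 differences were 0.45 in each depleted array, and the limma log2 difference of 0.56 (SE 0.45, adjusted p = 0.9997) did not pass the test. The array carried 1 Rab25 probe set. Rab11a read 30.7 and 43.2 in the depleted arrays, on either side of 33.1 in wild type, but a dimmer Rab11a probe set read 9.67 and 11.0 in the depleted arrays and 5.83 in wild type. Rab11b read 29.0 and 29.4 in the depleted arrays and 27.0 in wild type, with centred differences of 0.10 and -0.10. Its dimmer probe sets lay below the median in both depleted arrays, with centred differences of -0.53 and -0.21, and of -0.82 and -0.87.

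Of the Rab genes of late endosomes, lysosomes and autophagy, 6 of 9 were tested, with centred medians of 0.08 and 0.11. Rab7, which directs late endosomes to lysosomes, read 31.4 and 36.4 in the depleted arrays and 29.7 in wild type, and its other probe set 22.5 and 33.4 against 26.1. Rab9, of return from late endosomes to the Golgi, read 13.8 and 12.9 in the depleted arrays and 12.4 in wild type. Rab9 lies on the X chromosome, as do Rab9b, Rab33a and Rab39b, which were under the filter. Rab24, linked to autophagy, read 8.12 and 13.8 in the depleted arrays and 9.04 in wild type, apart only in the second. Rab32, of lysosome-related organelles, read 5.23 and 6.49 in the depleted arrays and 4.96 in wild type.

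The Rab genes of regulated secretion were those in which the depleted arrays differed most from each other. The median gap between the centred differences of the depleted arrays was 0.77 over these 7 genes, against 0.21 over the 48 Rab genes and 0.33 over all genes tested, and no test of this was made. Centred medians were 0.35 in the first depleted array, with 6 of 7 above the median, and -0.19 in the second, with 2 of 7 above, against 50.0% of all genes in each array.

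Rab27b, which docks secretory granules at the plasma membrane, read 27.0 and 13.0 in the depleted arrays, 20.0 ± 9.89 (SD, n = 2), and 10.9 in wild type. The first depleted array stood alone, and the second was close to wild type. The limma log2 difference was 0.78 (SE 0.46, adjusted p = 0.9997). The Rab27b probe sets of lower mean past the filter repeated the pattern, at 8.93 and 5.06 in the depleted arrays against 4.20 in wild type, and at 2.17 and 0.746 against 0.556. Rab27a, which shares effectors with Rab27b, read 5.22 and 2.44 in the depleted arrays and 2.38 in wild type (limma log2 difference 0.55, SE 0.51, adjusted p = 0.9997). Over the 7 probe sets of both genes past the filter, all 7 lay above the median in the first depleted array, by 0.76 to 1.59 on the log2 scale. In the second 5 of 7 did, between -0.19 and 1.0. Probe sets of Rab27a differed in this. Dimmer ones read 4.05 and 3.07 in the depleted arrays against 1.78 in wild type, and 1.23 and 1.18 against 0.363. Another gave centred differences of 0.76 and -0.05.

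Rab3d, of zymogen-type granules, read 9.55 and 4.84 in the depleted arrays and 7.45 in wild type, so that wild type lay between them. Its other 3 probe sets had centred differences between 0.24 and 0.80 in the first depleted array and between -0.12 and 0.03 in the second. Rab37, also of secretory granules, read 6.44 and 4.35 in the depleted arrays and 4.01 in wild type, and its dimmer probe set was above the median in both, by 0.49 and 0.66. Rab3a, of synaptic and endocrine vesicles, read 1.67 and 2.53 in the depleted arrays and 1.66 in wild type, and Rab3c 0.885 and 0.586 against 0.670.

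Markers of secretory cells differed between the arrays alongside these genes. The 8 goblet cell markers, all measured, summed to 780 and 652 in the depleted arrays and 485 in wild type, with 8 of 8 above the median in the first and 4 of 8 in the second. Their centred medians were 0.84 and 0.03. Enteroendocrine markers, 9 of 9 measured, summed to 156 and 96.5 in the depleted arrays and 98.8 in wild type, with 8 and 1 of 9 above the median. Paneth cell markers, 4 of 5 measured, summed to 322 and 243 in the depleted arrays and 202 in wild type, with 3 of 4 above the median in each depleted array and centred medians of 0.72 and 0.04. Among them the goblet marker Retnlb was near 0 in the second depleted array and in wild type, at 0.0230 and 0.0780. The 3' to 5' ratio given above was highest in the same depleted array, the first. The part of these markers and of RNA quality in the values of the secretory Rab genes was not tested, and in this bulk tissue more cells of a type and more RNA per cell cannot be told apart.

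**Figure D3:**
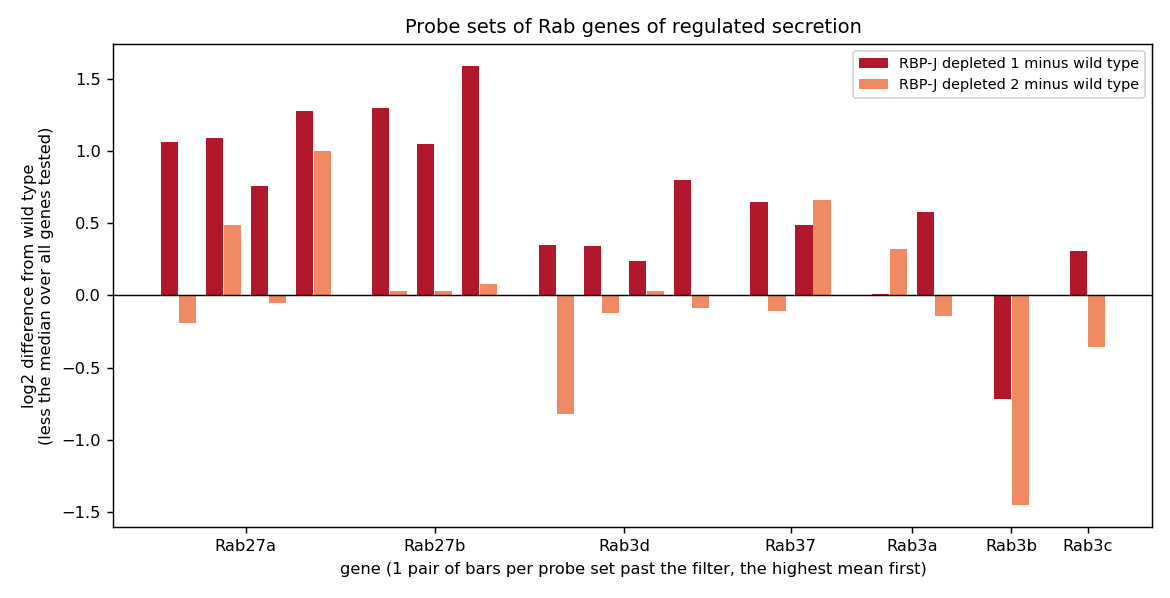
Centred log2 difference from wild type (vertical axis) for every probe set past the filter of the 7 tested Rab genes of regulated secretion, as a pair of bars, the first RBP-J depleted array left and the second right. All 7 probe sets of Rab27a and Rab27b lie between 0.76 and 1.59 in the first array, while in the second they lie between -0.19 and 1.0.

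The remaining Rab genes of cilia and other roles had 4 tested members. Rab28, of the cilium, read 5.16 and 7.07 in the depleted arrays and 4.14 in wild type, with centred differences of 0.31 and 0.51. Its other probe set read 4.28 and 5.78 in the depleted arrays and 5.35 in wild type. Centred, that probe set went the other way in both, at -0.30 and -0.12. Rab40c, a Rab with a SOCS box that joins ubiquitin ligases, read 3.96 and 3.73 in the depleted arrays and 4.53 in wild type, and its dimmer probe set went the other way, with centred differences of 0.69 and 0.93. The 11 tested members not yet given, Rab4b, Rab12, Rab13, Rab15, Rab18, Rab19, Rab21, Rab22a, Rab31, Rab33b and Rab40b, had centred log2 differences between -0.21 (Rab18) and 0.42 (Rab15) in the first depleted array and between -0.65 (Rab40b) and 0.33 (Rab22a) in the second. Disagreement between probe sets of a gene was common. Of the 30 tested Rab genes with more than 1 probe set past the filter, all those probe sets lay on the same sides of the median in both arrays for 5.

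The 11 Rab genes under the filter were Rab6b, Rab7b, Rab9b, Rab26, Rab33a, Rab34, Rab36, Rab38, Rab39, Rab39b and Rab44, with values between 0.0250 and 1.0. Values this low have no reliable order, and these genes were compared only in the alternative with no filter. Several of them, such as Rab6b and Rab39b, are known from neurons. The neuronal markers, 6 of 6 measured, summed to 8.31 and 4.71 in the depleted arrays and 3.86 in wild type. Only 2 of these markers were past the filter, and they made up most of each sum. Ret read 3.37 and 2.43 in the depleted arrays and 0.811 in wild type, and Snap25 3.47 and 1.30 against 2.03. Uchl1 was near 0, at 0.0800 and 0.222 against 0.119.

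The regulators and effectors of the Rab cycle also gave no call. Of 138 genes listed, 132 were measured and 119 tested. Limma called 0 of the 119, with or without an intensity trend, against 0.0841% of all genes tested. An unadjusted p under 0.05 in the limma fit was found for 2 of the 119, against 2.27% of all genes tested. Over 36 exchange factors the centred medians were 0.08 and -0.03, with 15 above the median in both and 13 below it in both. Each of these shares was 29.9% over all genes tested. Rab3ip, the exchange factor of Rab8, read 9.81 and 12.6 in the depleted arrays and 12.3 in wild type. Trappc6a, a subunit of a tethering complex that activates Rab1, read 4.39 and 5.62 in the depleted arrays and 3.11 in wild type, but its dimmer probe set gave -0.39 and -0.78. Dennd1a, which activates Rab35, read 1.5 and 1.67 in the depleted arrays and 2.79 in wild type, with centred differences of -0.79 and -0.88.

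GTPase-activating proteins had centred medians of -0.04 and -0.02 over 34 genes, with 11 above the median in both arrays and 13 below. On each side the share of all genes tested was 29.9%. Tbc1d30, which acts on Rab8 at the cilium, read 3.63 and 2.99 in the depleted arrays and 0.975 in wild type (limma log2 difference 1.53, SE 0.53, unadjusted p = 0.00366, adjusted p = 0.9997). Its dimmer probe set read 1.45 and 0.881 in the depleted arrays and 0.920 in wild type, without a difference in the second. Tbc1d2b read 2.0 and 3.93 in the depleted arrays and 4.95 in wild type. Among the 6 tested genes of GDI, escort and prenylation, Gdi2, which extracts Rab proteins from membranes, read 61.6 and 72.8 in the depleted arrays and 58.6 in wild type. Rabggtb, a subunit of the enzyme that attaches the prenyl anchor, read 6.73 and 12.2 in the depleted arrays and 12.2 in wild type.

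Effectors had centred medians of 0.26 in the first depleted array, with 33 of 43 genes above the median, and -0.04 in the second, with 19 of 43 above, against 50.0% of all genes in each. Exoc6b, an exocyst subunit that binds Rab GTPases, read 4.51 and 5.77 in the depleted arrays and 2.35 in wild type (limma log2 difference 1.04, SE 0.50, unadjusted p = 0.0366, adjusted p = 0.9997), and its other probe set 3.69 and 3.29 against 2.26. Plekhm1, which links Rab7 to lysosome fusion, read 6.35 and 7.29 in the depleted arrays and 3.50 in wild type. Bicd2, a dynein adaptor of Rab6, read 2.62 and 4.41 in the depleted arrays and 5.79 in wild type, and Rilp, a Rab7 effector, 2.95 and 3.17 against 4.08. Other probe sets of Bicd2 went both ways, and its limma log2 difference was -0.28 with its probe sets averaged, against -0.72 for the one given. The effectors of Rab27, chosen after their values were seen, lay above the median in 6 of 6 tested in the first depleted array (Sytl1, Sytl2, Sytl4, Unc13d, Mlph and Myrip), with differences of 0.21 to 1.37, and in 3 of 6 in the second. Chosen in that way, they are no independent support for the values of Rab27. Sytl4, which tethers granules with Rab27, read 2.40 and 1.06 in the depleted arrays and 0.776 in wild type.

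**Figure D4:**
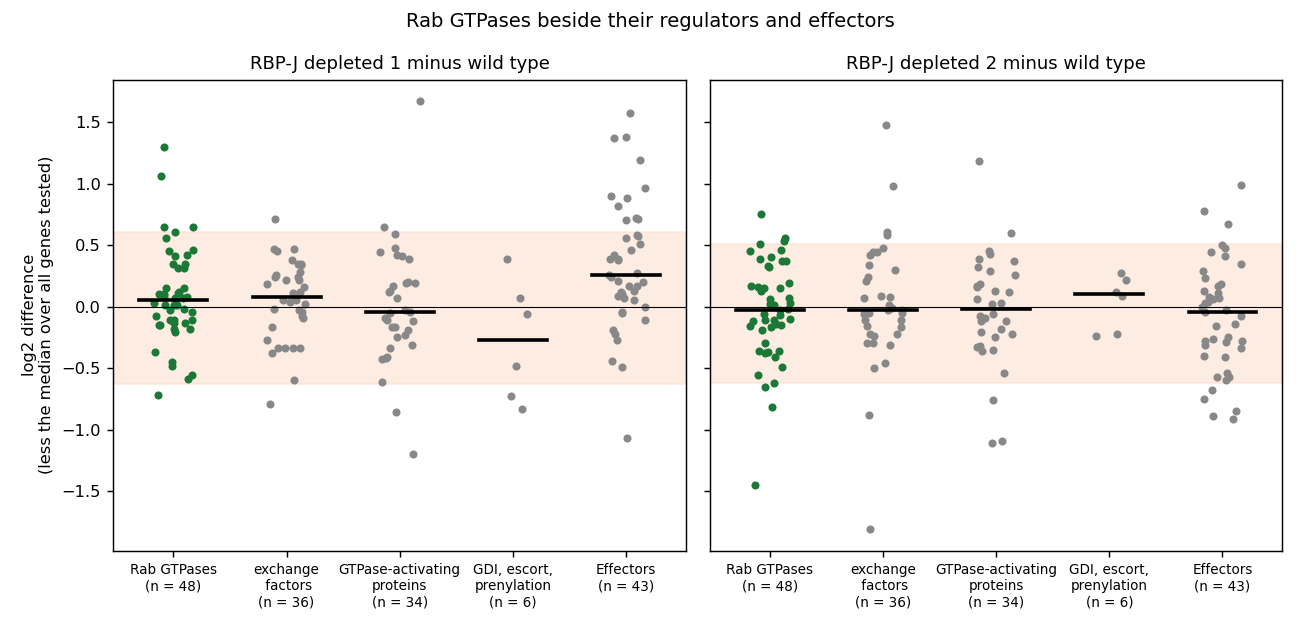
Centred log2 difference from wild type (vertical axis) in the first (left panel) and second (right panel) RBP-J depleted array for each tested Rab gene and each tested regulator or effector; bars are medians and the shaded band holds the 10th to 90th percentiles of all genes tested. Medians lie near 0 for Rab GTPases (0.05 and -0.03), and that of the effectors is 0.26 in the first array and -0.04 in the second.

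The names in the set that are not GTPases gave no call either. Rab5if read 16.5 and 26.7 in the depleted arrays and 16.7 in wild type. Rab10os, antisense in name to Rab10, read 7.42 and 6.80 in the depleted arrays and 7.53 in wild type, and Rab26os 1.95 and 2.49 against 2.71.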

How the data were processed

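Total RNA was turned into biotin-labelled cRNA for Affymetrix arrays, per the labels' protocols. Per the submitters' processing notes the authors used MAS5, and the deposited table gives 1 linear intensity for each probe set and array, with a median of 1 on every array. Scanner output and detection calls were not analysed here. Depth does not apply, and the 3 arrays limit the precision.

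Genes were named through the platform annotation, and each of 18193 genes was represented by its probe set of highest mean. The 11885 with a mean of at least 0.598, the 40th percentile over 45101 probe sets, were tested as log2(value + 0.248), where 0.248 is the 25th percentile of all values, which understates folds of dim genes. RBP-J depleted and wild type arrays were compared with limma 3.58.1 in R 4.3.3 (lmFit, eBayes with trend), with Benjamini-Hochberg adjustment over all genes tested and a threshold of 0.05. Only the 2 depleted arrays give the spread (1 residual and 600 prior degrees of freedom), which the single wild type array is taken to share. The fit was run on simulated data with the same spread for every gene and array. That setting cannot test whether the wild type array shares the spread of the depleted ones. Alternatives were a pseudocount of 1, no filter, quantile normalization, a common 75th percentile, averaging all probe sets per gene, eBayes without trend, a fold of 2, no centring and leaving out each depleted array.

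Members, lists and markers were chosen with earlier results of these data known. Named were 16 preset Rab names, the 8 highest and 8 lowest Rab genes by the smaller of their centred differences of the same sign, and up to 3 regulators per list and direction by that rank. Other genes are named only to give values for their group. Promoter windows are RefSeq's on GRCm38.p6, and no source used here gives the build behind the probe sets.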

Additional observations from a re-analysis of the deposited data

How the results depend on the processing

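The count of Rab genes called by limma, and that of regulators and effectors, stayed at 0 under every alternative with a test. The median centred log2 difference of the Rab genes, 0.02 with an SD of 0.06 between the depleted arrays, ranged from -0.03 to 0.05 with a depleted array left out, and was 0.13 without centring. The count of Rab genes at least 1.5-fold higher in both depleted arrays was 0. It was 2 with no filter (Rab29 and Rab44), 2 with quantile normalization (Rab20 and Rab29) and 1 without centring (Rab29). With a depleted array left out it lay between 1 and 5. Rab44 is under the filter, at 0.398 and 0.482 in the depleted arrays and 0.104 in wild type, values too low for a reliable order. The count of those lower, 1, was 0 with a pseudocount of 1 and with a fold of 2, and with a depleted array left out lay between 2 and 4. Of 49 named genes, 6 changed sign with quantile normalization: Rab10 (-0.20), Rab11a (-0.06), Rab11b (-0.07), Rab14 (-0.17), Rab5b (-0.05) and Gdi2 (-0.05). With the same 75th percentile 3 did, Rab10 (-0.04), Rab14 (-0.04) and Rab5b (-0.03), and with all probe sets of a gene averaged 6 did, Rab11b (-0.29), Rab17 (0.11), Rab3d (0.20), Rab40c (0.35), Dennd6a (0.00) and Ocrl (0.07). With the second depleted array left out 6 did, Rab10 (-0.13), Rab11a (-0.11), Rab14 (-0.03), Rab5b (-0.60), Rab8a (-0.11) and Rab3d (0.35), and without the first 2 did, Rab8b (0.07) and Rab3ip (0.03). The differences whose signs are compared here are not centred. Of the genes that changed sign with quantile normalization, Rab10 (-0.13 and -0.02) and Rab14 (-0.03 and -0.14) had centred differences below the median in both depleted arrays. Gdi2 (0.07 and 0.09) was above it in both, and Rab11a, Rab11b and Rab5b lay on opposite sides. None of the genes that changed sign was called under any alternative that has a test (leaving out a depleted array has none). The cause of the sign changes was not tested. No paired analysis was possible with 1 wild type array beside 2 depleted arrays.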
